A study of Homo sapiens with 4 samples.

Results

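G0S2, a short gene whose protein blocks the main triglyceride lipase of the cell, was followed here together with 9 genes of the lipid droplet. G0S2 was selected on its counts in these same libraries, where they were higher with estradiol (E2), so its change with E2 is given as a description and is not tested. The other members were chosen by function: PNPLA2, the lipase that G0S2 binds, ABHD5, LIPE, MGLL, PLIN2, PLIN3, DGAT1, DGAT2 and HILPDA. This choice was made with earlier results of these data known, so the members are not a set picked blind to these libraries. All 10 symbols were found among the 26364 genes of the count table. The cells were Ishikawa, an established line from an endometrial adenocarcinoma, with the Y537S change in estrogen receptor alpha (ESR1), and 2 mutant clones were used. After at least 5 days in hormone-deprived medium, each clone received 0.1% DMSO, the vehicle, or 10 nM E2 for 8 h. This gave 4 poly(A)-selected RNA libraries in 2 groups of 2, and every library carried the mutation. Libraries without the mutant receptor were not analysed here. The count columns carry the tags A4 and B212, which no label links to clone 1 or clone 2, so libraries are named by tag and treatment. Each tag is taken as a clone, with 1 library per treatment, and p-values measure only the spread between these libraries.

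Lipid droplets store triglyceride under a coat of perilipin proteins. DGAT1 and DGAT2 make the triglyceride. PNPLA2 (adipose triglyceride lipase) removes the first fatty acid, LIPE (hormone-sensitive lipase) then acts on diglyceride and MGLL on monoglyceride. ABHD5 is the coactivator of PNPLA2, while G0S2 and HILPDA bind PNPLA2 and inhibit it. PLIN2 and PLIN3 are the droplet coat proteins of most cells outside fat, and HILPDA and PLIN2 are known to be raised by hypoxia.

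The promoters of G0S2 and of its target PNPLA2 are shown because the results turn on this pair of inhibitor and lipase. They were read from the RefSeq promoter table (GRCh38.p14), which held 6 of the 10 members (G0S2, PNPLA2, ABHD5, LIPE, PLIN2 and PLIN3). Both are on the plus strand and cover the 250 bases before the annotated start: chr1:209675162-209675411 for G0S2 and chr11:818664-818913 for PNPLA2. These positions come from that table and not from the count file. Capitals mark the half-site of the estrogen response element, GGTCA, on either strand.
G0S2: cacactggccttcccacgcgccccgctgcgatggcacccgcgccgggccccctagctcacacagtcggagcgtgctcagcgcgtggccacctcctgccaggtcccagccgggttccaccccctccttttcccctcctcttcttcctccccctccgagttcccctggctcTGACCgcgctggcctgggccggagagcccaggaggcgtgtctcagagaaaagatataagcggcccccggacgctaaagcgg
PNPLA2: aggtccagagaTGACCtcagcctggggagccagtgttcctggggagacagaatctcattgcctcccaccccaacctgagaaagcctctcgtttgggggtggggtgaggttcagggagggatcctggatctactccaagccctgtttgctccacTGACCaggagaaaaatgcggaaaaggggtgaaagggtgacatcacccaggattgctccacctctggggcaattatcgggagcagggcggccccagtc
The half-site began 81 bases before the start in G0S2, and 239 and 97 bases before it in PNPLA2. Of all 35116 windows of this length in the table, 32.6% held it. The full estrogen response element (the half-site, any 3 bases and then TGACC) and the direct repeat bound by PPAR (the half-site preceded by A, 2 times over with 1 base between) contain the half-site themselves. They were searched on both strands and were in neither window, which says nothing about binding of either factor. They were held by 0.0399% and 0.0171% of all windows. GC content was 69.2% for the G0S2 window and 58.4% for the PNPLA2 window.

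The libraries held 71575816 to 85222856 counts. ESR1 had 86.5 to 109.9 CPM (a count relative to the library's size, adjusted by the trimmed mean of M values) in the 4 libraries. Its values were lower with E2 in both tags, from 109.9 to 96.98 CPM in A4 and from 107.4 to 86.52 CPM in B212. Counts per gene do not show the mutation itself. All 8 epithelial markers were expressed, with a summed level of 2240 to 3020 CPM. The 8 adipocyte markers summed to 2.83 to 3.34 CPM in DMSO and 2.34 to 4.92 CPM in E2, and 2 of the 8 passed the count filter. ADIPOQ was at 0 in every library, and LEP, FABP4, CIDEC and CIDEA each had at most 0.0409 CPM in a library. LPL had at most 0.0819 CPM. Most of the sum was PLIN4, with 1.87 to 4.35 CPM, and PLIN1 had 0.366 to 0.518 CPM. Both are also on the droplet structure list used below. The leukocyte list summed to at most 3.2 CPM and the endothelial list to at most 15.3 CPM. The fibroblast list, most of it COL1A1, summed to 61.5 to 143 CPM in DMSO and 51.4 to 108 CPM in E2. Its part in the results was not tested. In libraries of whole cultures, fewer expressing cells and less RNA per cell cannot be told apart.

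How much RNA of each member these cells held was compared as RPKM (CPM per kilobase of transcript), with 1 GENCODE 29 transcript per gene. Over all 4 libraries G0S2 had the highest mean of the members, 36.4 ± 18.6 RPKM (SD, n = 4 libraries), above 86.3% of the genes tested. This place rests on the E2 libraries, for which G0S2 was chosen: its mean was 23.7 RPKM in DMSO, below PLIN3 at 26.6, and 49.1 RPKM in E2, above PLIN3 at 28.2. Over the 4 libraries it was followed by PLIN3 at 27.4 ± 3.14, ABHD5 at 15.5 ± 1.89, HILPDA at 14.4 ± 2.13, PNPLA2 at 7.33 ± 1.06 and DGAT1 at 3.99 ± 0.659 RPKM. MGLL had 1.15 ± 0.387, DGAT2 0.272 ± 0.0787, LIPE 0.0664 ± 0.0309 and PLIN2 0.0179 ± 0.0174 RPKM. The ranges over the 4 libraries overlapped between G0S2 and PLIN3, between ABHD5 and HILPDA and between LIPE and PLIN2, so those neighbours were not separated. The other 6 neighbouring pairs did not overlap. With the length of the coding sequence in place of the transcript, the order was HILPDA, G0S2, ABHD5 and PLIN3, and the lower 6 places stayed as they were. On either length the inhibitors of PNPLA2, its coactivator and PLIN3 filled the upper 4 places. LIPE had 9 to 34 counts in a library and PLIN2 0 to 6. PLIN2 is widely expressed, and RXRB, another broadly expressed gene, was at 0 in every library, so whether these counts give the RNA level of PLIN2, and its place in the order, is uncertain.

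**Figure D1:**
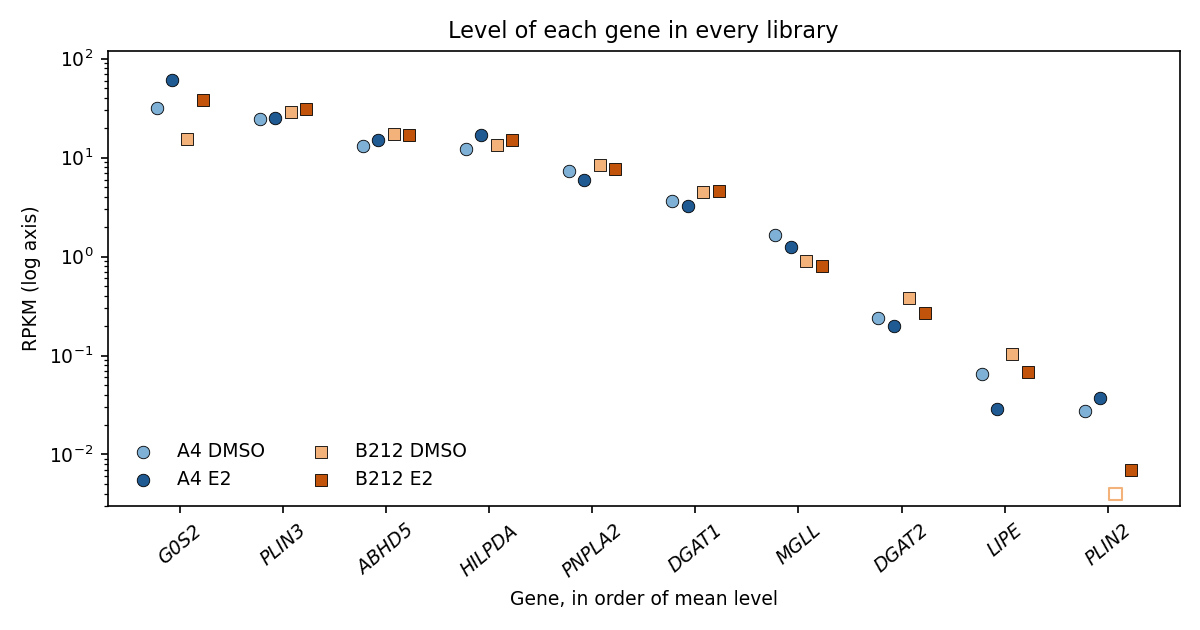
Level of the 10 genes in each of the 4 libraries, in RPKM on a log axis, in order of their mean. Circles are A4 and squares B212, pale for DMSO and dark for E2, and the open square at the foot of the axis is PLIN2 in the B212 DMSO library, which had 0 counts. G0S2 spreads from 15.3 to 60.2 RPKM, and PLIN2 is the lowest.

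The comparison of E2 with DMSO asked which genes respond to the ligand when the receptor is already mutated. G0S2 had 2032 counts in the A4 DMSO library and 4279 in the A4 E2 library, and 1130 and 2415 in the B212 libraries. Scaled, this was 27.75 and 52.16 CPM in A4 and 13.24 and 32.95 CPM in B212. Both E2 libraries were above both DMSO libraries, although the B212 E2 library was only a little above the A4 DMSO library. The ratio of E2 to DMSO was 1.88 (95% exact binomial interval 1.78 to 1.98) in A4 and 2.49 (2.32 to 2.67) in B212. Such intervals cover counting error only. The DMSO libraries averaged 20.5 ± 10.3 CPM and the E2 libraries 42.6 ± 13.6 CPM (SD, n = 2 each), and the log2 fold change was 1.06 ± 0.445 (SE) without and 1.11 ± 0.0929 with the tag as a block.

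Of the other 9 members, 8 passed the count filter and were tested. With no block, the spread within a group includes the difference between the tags, and edgeR's quasi-likelihood test called 0 of the 8 (Benjamini-Hochberg adjusted p below 0.05). None of the 8 had an unadjusted p below 0.05, and 0.0% of all 15599 genes were called. DESeq2 and limma-voom without the block also called none of the 8. When the tag entered as a block, 9.56% of all genes were called by edgeR, 6.13% higher and 3.44% lower, and 1 of the 8 members, HILPDA. A share of 1 in 8 is near that background. Unadjusted p-values below 0.05 were seen for 3 of the 8 (HILPDA, PNPLA2 and MGLL) and for 3953 of the 15599 genes. The median log2 fold change of the 8 was -0.148 with the block, against -0.0081 for all genes tested. The CPM of the DMSO and E2 groups did not overlap for 1 of these 8, HILPDA, and for 25.0% of all genes. Cell type markers also moved with E2 in the blocked fit. edgeR called 2 of 8 epithelial markers lower (median log2 -0.119), against 3.44% of all genes. It also called lower 2 of 5 endothelial (-0.425) and 1 of 5 fibroblast and stromal markers tested (-0.386). No marker was called higher, and none of the adipocyte or leukocyte lists was called. The part of these markers in the E2 results was not tested.

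HILPDA, the other inhibitor of PNPLA2, rose with E2 in the fit with the block. It had 16.48 CPM in A4 DMSO, 23.06 in A4 E2, 18.01 in B212 DMSO and 20.3 in B212 E2, and its groups did not overlap. The ratio was 1.4 (1.3 to 1.51) in A4 and 1.13 (1.05 to 1.21) in B212. Its log2 fold change with the block was 0.33 ± 0.0932 (SE), with an edgeR adjusted p of 0.032 against 0.9999 with no block. With the block, the call was lost with DESeq2 (adjusted p = 0.132), DESeq2 size factors in edgeR (0.0713), limma-voom (0.0504) and a correction for GC content and transcript length (0.105). On the log2 scale HILPDA was higher with E2 by 0.485 in A4 and 0.173 in B212. G0S2, at 0.911 and 1.32, was chosen for its rise with E2. The shared direction of these inhibitors is therefore a description only.

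PNPLA2, the lipase itself, gave lower values with E2 in both tags but was not called. Its CPM was 17.75 in A4 DMSO and 14.31 in A4 E2, and 20.39 and 18.76 in B212. The groups overlapped, since the B212 E2 library was above the A4 DMSO library. The ratio was 0.806 (0.744 to 0.873) in A4 and 0.92 (0.857 to 0.988) in B212. With the block its log2 fold change came to -0.21 ± 0.0906 (SE; edgeR adjusted p = 0.142). Corrected for length and GC content as well, it was -0.146 (edgeR adjusted p = 0.276).

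ABHD5, the coactivator, went from 69.79 to 80.48 CPM with E2 in A4 and from 91.88 to 89.91 CPM in B212. The tags thus moved in opposite directions, by 0.206 and -0.0312 on the log2 scale, and the B212 interval (-0.0787 to 0.0162) included 0. The blocked log2 fold change came to 0.086 ± 0.0744 (SE; edgeR adjusted p = 0.504). Exons of ABHD5 overlap the antisense gene ANO10, which had 3754 to 4537 counts per library, and the strand setting of the counting is not given in the sources used here.

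The ratio of inhibitor to target within a library needs no scaling between libraries. It still carries any trend with transcript length and GC content that differs between libraries, and was not corrected for it. With that trend removed and the tag as a block, the log2 fold change was 0.963 for G0S2 and -0.146 for PNPLA2. It was 0.230 for HILPDA and 0.030 for ABHD5. The blocked values without this correction were 1.11, -0.21, 0.33 and 0.086, in the same order. Per transcript length, G0S2 RNA was 4.38 times PNPLA2 RNA in A4 DMSO and 10.2 times in A4 E2. In B212 it was 1.82 times in DMSO and 4.92 times in E2. The ratio was therefore 2.33-fold higher with E2 in A4 and 2.7-fold higher in B212, against 1.88 and 2.49 for G0S2 CPM alone. HILPDA to PNPLA2 went from 1.67 to 2.9 in A4 and from 1.59 to 1.95 in B212. ABHD5 to PNPLA2 went from 1.78 to 2.54 in A4 and from 2.04 to 2.17 in B212. The G0S2 ratios rest on the gene chosen for its rise with E2 and are descriptions. Those of HILPDA and ABHD5 have no test, with 1 library per tag and treatment.

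**Figure D2:**
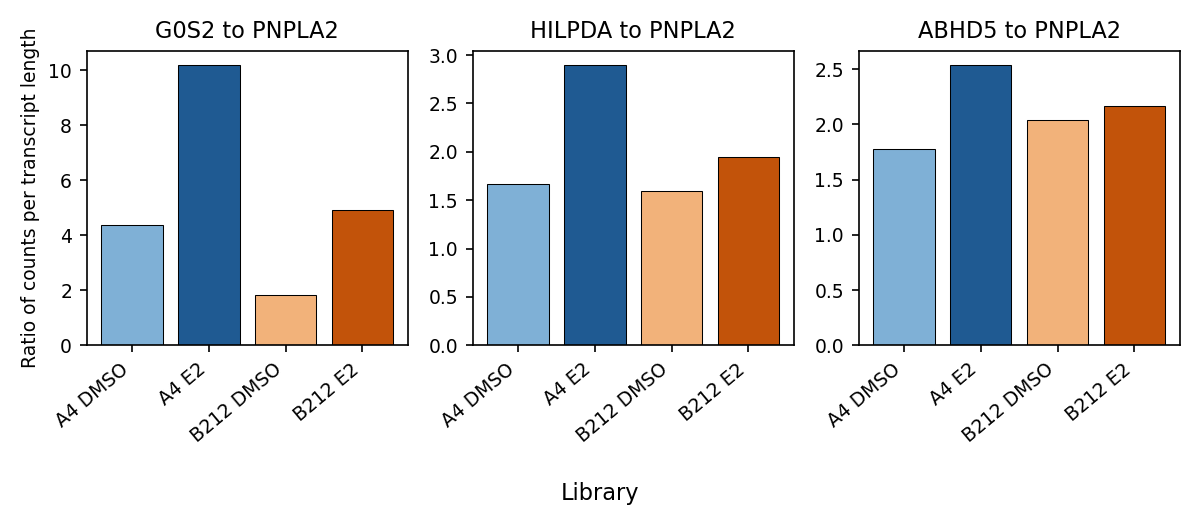
Ratio of the RNA of G0S2, HILPDA and ABHD5 to that of PNPLA2 in each library, as counts per transcript length, with a separate axis from 0 in each panel. Each bar is 1 library, so there are no error bars. The G0S2 ratio is higher with E2 in both tags, from 4.38 to 10.2 in A4 and from 1.82 to 4.92 in B212.

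The later lipases also gave lower values with E2 in both tags without being called, and only the A4 interval of MGLL left out 1. MGLL had 8.165 and 6.229 CPM in A4 (DMSO and E2) and 4.429 and 3.97 CPM in B212. Its ratio was 0.763 (0.677 to 0.86) in A4 and 0.896 (0.767 to 1.05) in B212, and the edgeR adjusted p with the block was 0.156. The blocked log2 fold change of MGLL went from -0.283 to -0.129 with the correction for length and GC content (edgeR adjusted p = 0.54). LIPE had 18 and 9 counts in A4 and 34 and 19 counts in B212. At that depth the ratio intervals, 0.177 to 1.05 and 0.351 to 1.17, both included 1, and a change of LIPE was not detectable.

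The triglyceride-making enzymes gave no call. DGAT1 had 13.57 and 11.95 CPM in A4 and 16.75 and 16.92 CPM in B212, log2 changes of -0.184 and 0.0138. Its edgeR adjusted p with the block was 0.633. DGAT1 exons overlap the antisense gene HSF1, with 4037 to 5009 counts per library. DGAT2 had 43 and 40 counts in A4 and 80 and 48 in B212. Like the lipases, it gave lower values with E2 in both tags, by -0.268 and -0.517 on the log2 scale. Its counting intervals (-0.926 to 0.387 and -1.07 to 0.0165) both included 0. The blocked log2 fold change was -0.404 ± 0.277 (SE; edgeR adjusted p = 0.385).

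Neither coat protein gene was called. PLIN3 had 57.16 and 58.72 CPM in A4 and 66.95 and 72.79 CPM in B212, with a log2 fold change of 0.08 ± 0.0725 (SE) and an edgeR adjusted p of 0.527 with the block. Scaled by library size only, its A4 value was -0.00365. PLIN2 had 4 and 6 counts in A4 and 0 and 1 in B212. It fell under the count filter and was the only member not tested. A count of 0 allows up to 3 counts, so its B212 libraries cannot be ordered.

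**Figure D3:**
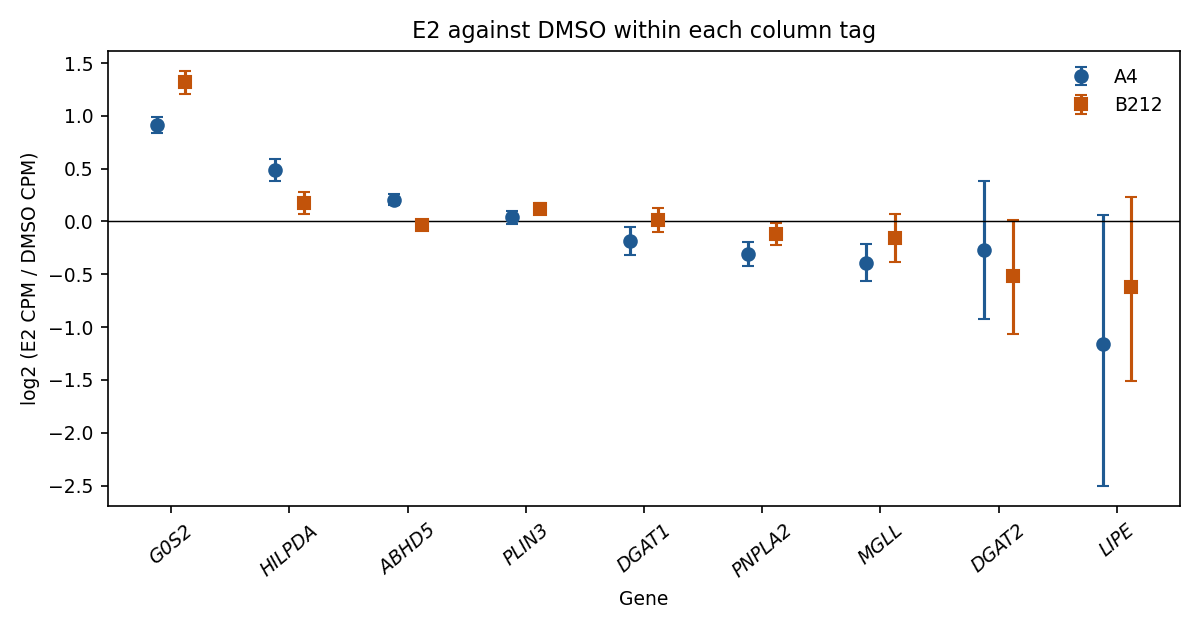
Log2 ratio of E2 to DMSO CPM for the 9 genes that passed the count filter, in A4 (circles) and B212 (squares). Bars are 95% exact binomial intervals of the counts, for counting error only. G0S2 stands at 0.911 and 1.32, HILPDA is above 0 in both tags, and DGAT2 and LIPE have wide intervals.

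The rule for choosing members did not use the difference between the tags, although earlier results of these data were known. All 9 measured members were tested for that difference, with treatment as a covariate. edgeR's quasi-likelihood test called 6 of the 9 (adjusted p below 0.05), 4 higher and 2 lower in B212, where it called 51.0% of all 15599 genes, 25.2% higher and 25.8% lower. The CPM of the tags did not overlap for 7 of the 9, against 67.5% of all genes. So many genes differed between the tags that these counts stand near the background, and the comparison is of 2 clones only. The median absolute log2 difference was 0.402 for the members and 0.277 for all genes tested. Marker lists of cell types also moved with the tag, in the same fit. Of 8 epithelial markers tested, 6 were called higher in B212 and 0 lower (median log2 0.554), and of 5 endothelial markers tested 5 were higher (median 1.17), with PECAM1 at 0 in every library. Of 5 fibroblast and stromal markers tested, 1 was called higher and 2 lower. COL1A1 of that list had 92.4 to 128 CPM in A4 and 34.5 to 42.4 CPM in B212, whereas THY1 had 1.19 to 1.38 CPM in A4 and 3.19 to 3.4 CPM in B212. The part of these markers in the differences below was not tested.

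G0S2 fell by 0.86 ± 0.0926 (SE) on the log2 scale from A4 to B212 (edgeR adjusted p = 2.14e-07). The difference was -1.07 between the DMSO libraries and -0.663 between the E2 libraries, so the tag with less G0S2 in vehicle also had less with E2. MGLL fell by 0.77 ± 0.124 (adjusted p = 3.26e-05 by edgeR), with -0.883 in DMSO and -0.65 in E2. These were the members called lower, an inhibitor of PNPLA2 and the lipase of monoglyceride.

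The members called higher in B212 were DGAT1, PNPLA2, ABHD5 and PLIN3. DGAT1 was higher by 0.40 ± 0.0947 (log2, SE; edgeR adjusted p = 0.00144), and by 0.304 in DMSO and 0.502 in E2. PNPLA2 was higher by 0.29 ± 0.0906, with an edgeR adjusted p of 0.0106, and DESeq2 did not call it (0.0785). ABHD5 was higher by 0.28 ± 0.0744 with an edgeR adjusted p of 0.004. Its difference was 0.397 in DMSO but 0.16 in E2, and without the A4 DMSO or the B212 DMSO library it was 0.151 or 0.154, and 0.152 with the correction for length and GC content. PLIN3 was higher by 0.27 ± 0.0725 (edgeR adjusted p = 0.00421).

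DGAT2, LIPE and HILPDA were not called between the tags. DGAT2 had a log2 difference of 0.56 ± 0.278 and LIPE one of 0.90 ± 0.417, with edgeR adjusted p-values of 0.101 and 0.0775. HILPDA had -0.031 ± 0.0932 (edgeR adjusted p = 0.809), with 0.128 in DMSO and -0.184 in E2. In vehicle, the ratio of G0S2 to PNPLA2 was thus 1.82 in B212 and 4.38 in A4.

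**Figure D4:**
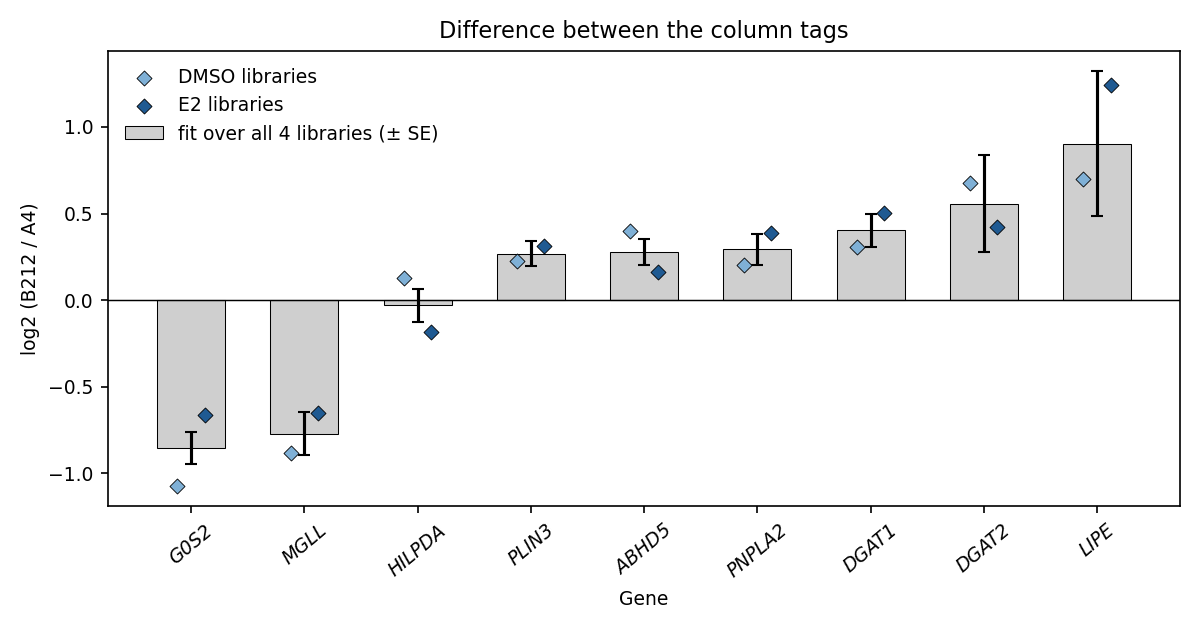
Log2 difference of B212 from A4 for the 9 genes that passed the count filter. Bars are the fit over all 4 libraries with its SE, and diamonds are the differences within DMSO (pale) and within E2 (dark). G0S2 and MGLL lie below 0 in both treatments, and HILPDA changes sign between them.

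The wider pathway was read from 7 lists written from general knowledge, 104 genes of droplet structure, lipolysis, triglyceride synthesis, fatty acid uptake, fatty acid oxidation, PPAR signalling and hypoxia. These lists, too, were written with earlier results of these data known. Of the 89 that passed the count filter, edgeR called 0 for E2 with no block (0 with an unadjusted p below 0.05). In the blocked fit it called 3, or 3.37%, against 9.56% of all genes: 2 higher and 1 lower. The median log2 fold change of the 89 was 0.000804. No member of the droplet structure (13 tested), triglyceride synthesis (13), fatty acid oxidation (16) or PPAR (8) lists was called.

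The fatty acid uptake list had 1 gene called of 14 tested. This was FABP5, a fatty acid binding protein, with 2050 and 3520 counts in A4 (DMSO and E2) and 1590 and 1660 in B212, and a log2 fold change of 0.45 ± 0.089 (SE; edgeR adjusted p = 0.00474). The hypoxia list, which bears on HILPDA, also had 1 of 14, BNIP3, a mitophagy receptor. BNIP3 had 1569 and 2690 counts in A4 and 3355 and 3398 in B212, with a log2 fold change of 0.42 ± 0.089 (edgeR adjusted p = 0.0071). Among 11 lipases tested, PNPLA6, a phospholipase related to PNPLA2, fell by 0.26 ± 0.081 on the log2 scale (edgeR adjusted p = 0.0477), and DESeq2 did not call it (0.134). The log2 changes of FABP5 and BNIP3 were 0.616 and 0.614 in A4 and 0.282 and 0.238 in B212. The difference between tags was not tested, with 1 library per tag and treatment. With no block, leaving out the A4 E2 library gave a log2 change of -0.044 for FABP5, and leaving out the A4 DMSO library 0.013 for BNIP3. Such fits unbalance the tags, so these values also carry the difference of B212 from A4. That difference was -0.757 for FABP5 and 0.684 for BNIP3 on the log2 scale.

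Genes with the pattern most like that of G0S2 were sought among 13397 genes with a mean of at least 50 counts, by the Euclidean distance between log2 CPM profiles over the 4 libraries, each centred on its mean. The nearest were GPR89B at 0.223, PIM1 at 0.32, GAB3 at 0.401, CA2 at 0.527 and CHODL at 0.54, where the median gene was at 1.45. PIM1, a serine/threonine kinase, had 1748 and 2825 counts in A4 (DMSO and E2) and 985 and 1938 in B212. CA2, carbonic anhydrase II, had 10525 and 17894 counts in A4 and 6309 and 8465 in B212. GPR89B had 64 to 224 counts and a near-identical copy, GPR89A, so its counts are uncertain. Likeness over 4 libraries is a description only.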

How the data were processed

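RNA was measured in 4 libraries of Ishikawa ER-Y537S cells. The authors deposited raw read counts per gene symbol; per the submitters' processing notes, HISAT2, SAMtools, featureCounts and DESeq2 were used with the build hg19, without roles. Strand setting, annotation and versions are not given in the sources used here. A further 4 count columns belong to none of these samples and were not used.

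From the counts, genes were kept by filterByExpr of edgeR 4.0.16 (minimum count 10), leaving 15599, scaled by TMM and tested by edgeR's quasi-likelihood test with Benjamini-Hochberg adjustment over all genes at 0.05. The planned E2 fit had no block. The labels give both treatments to each clone, and the column tags pair the libraries: same-tag deviations from the group means correlated across genes (Pearson r = 0.871; with 2 tags this is 1 value). Results with the tag as a replicate block therefore stand beside it. Tags were compared with treatment in the model. Each SE is the log2 fold change over the square root of F.

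Transcript length and GC content came from the longest GENCODE 29 transcript per symbol, coding transcripts preferred, found for 96.6% of tested genes. RefSeq synonyms matched 3 list genes. Named genes were the members, up to 5 called genes per list for E2, 2 per list for the tags, the 5 nearest G0S2, and ESR1. Members and lists were chosen with earlier results of these data known. Alternatives covered scaling, DESeq2 1.42.0, limma-voom (limma 3.58.1), filters, thresholds, a length and GC trend (mgcv 1.9.3) and leaving out libraries. R 4.3.3, Python 3.11.15, scipy 1.17.1 and matplotlib 3.10.9 were used, and the fits were tested on simulated data. GPR89A as a copy of GPR89B, and gene functions, are background.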

Additional observations from a re-analysis of the deposited data

Results flagged for a closer look

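With E2, 2 of the 9 members tested had values above 0 in a single tag. No test of the difference is possible, as a tag has a single library per treatment. ABHD5 changed by 0.206 (log2) in A4 but by -0.0312 in B212, and B212 minus A4 is -0.237. DGAT1 changed by -0.184 in A4 but by 0.0138 in B212, and B212 minus A4 is 0.198. The B212 ratios, 0.979 (0.947 to 1.01) for ABHD5 and 1.01 (0.935 to 1.09) for DGAT1, had counting intervals that included 1.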

How the results depend on the processing

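With no block, 0 genes were called for E2 under each other scaling, filter, threshold and left-out library and with limma-voom, and 1 with DESeq2; 150 had an unadjusted p under 0.05 in edgeR. With a replicate block for the tag there were 1492 genes (956 higher, 536 lower). The blocked count was 590 with the length and GC trend removed, 717 with DESeq2 size factors, 533 with DESeq2, 1138 with limma-voom and 1686 (911 higher, 775 lower) with library size only. It was 1770 with no filter, 1560 with at least 10 counts in every library and 415 at an adjusted p under 0.01; these 3 were chosen after seeing the data. With the block, DESeq2 gave no adjusted p to 6654 genes, LIPE, MGLL and DGAT2 among them, so its 533 are out of fewer genes. The block changed the call of no tested member but HILPDA. The 7950 genes of the tag comparison (3927 higher, 4023 lower) became 4456 with no treatment term, where G0S2 (adjusted p = 0.208 by edgeR), PNPLA2 (0.141), ABHD5 (0.0837) and PLIN3 (0.0684) were not called; that fit puts the treatment difference into the residual spread. With library size only the split was 4761 higher and 3176 lower, with DESeq2 2519 and 3019, and with the trend removed 3882 and 4876.

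Signs reversed for DGAT1 with E2 (0.049 with the trend removed and the block) and for HILPDA between the tags (0.037 with library size only, 0.028 with the trend removed). None of these was called, and the cause was not tested. PNPLA6 was not called with DESeq2, DESeq2 size factors, limma-voom or the trend removed, each with the block, while FABP5 and BNIP3 were. FABP5 was near the threshold with the trend removed, at a log2 fold change of 0.27 (edgeR adjusted p = 0.046). With the block alone it had 0.45 (edgeR adjusted p = 0.00474). Leaving out 1 library, with no block, gave E2 values of 0.60 to 1.69 (G0S2), -0.11 to 0.27 (ABHD5), -0.69 to 0.21 (MGLL), -0.079 to 0.23 (PLIN3), -0.34 to 0.16 (DGAT1), -0.41 to -0.026 (PNPLA2), -1.54 to -0.32 (LIPE), -0.71 to -0.055 (DGAT2), 0.23 to 0.42 (HILPDA), -0.044 to 0.88 (FABP5), 0.013 to 0.87 (BNIP3) and -0.40 to -0.13 (PNPLA6). These unbalance the tags. A fit with the block has no residual degrees of freedom once a library is left out. Scaling by library size only raised the members of opposite direction in the tags from 2 to 3 (PLIN3); with coding lengths, 4 in place of 6 neighbouring levels were separated. Depth limited LIPE and DGAT2.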

Other observations

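Between the tags, edgeR called 50 of the 89 listed pathway genes, or 56.2%, against 51.0% of all genes, 18 higher and 32 lower in B212. PPARGC1A, a coactivator of PPAR and of mitochondrial genes, was higher in B212, by 3.11 ± 0.15 on the log2 scale (SE; edgeR adjusted p = 8.35e-13), with 75 and 72 counts in A4 and 731 and 573 in B212 (DMSO and E2). The related coactivator PPARGC1B was lower (-0.65 ± 0.096; edgeR adjusted p = 1.17e-05), and of the 8 genes tested in that list 3 were higher and 3 lower. In triglyceride synthesis, AGPAT2 was higher by 1.24 ± 0.074 and AGPAT9 (GPAT3) lower (-1.70 ± 0.11); both are acyltransferases (edgeR adjusted p = 2.42e-11 and 1.68e-10). SLC2A1, the glucose transporter of the hypoxia list, was lower (-1.64 ± 0.071), and BNIP3 of the same list was higher by 0.68 ± 0.09 (edgeR adjusted p = 1.33e-13 and 2.71e-06). The fatty acid transporter SLC27A4 (-0.81 ± 0.074) and the oxidation enzyme ACAA2 (-0.75 ± 0.084) were lower, while CPT1A, which admits fatty acids to mitochondria, was higher by 0.39 ± 0.069 (edgeR adjusted p = 1.94e-08, 3.64e-07 and 9.69e-05). CAV1 (-0.82 ± 0.086) and AUP1 (-0.39 ± 0.068) of the droplet list, NCEH1 (-0.66 ± 0.073) of the lipases and FABP5 (-0.76 ± 0.09) were lower, and the lipase PNPLA8 was higher (0.80 ± 0.079), each called by edgeR.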
